A study of Mus musculus with 5 samples.

Results

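The 10 genes described here encode the Mcm helicase subunits Mcm2, Mcm3, Mcm4, Mcm5, Mcm6 and Mcm7, the replication factor Mcm10, the loading factors Cdc6 and Cdt1, and geminin (Gmnn). They were taken by symbol from the 33894 genes named in the deposited tables, and all 10 were found and passed the filter on low counts. The data are bulk Smart-seq2 RNA libraries of mouse blood stem cells at 8 weeks of age. The cells were gated from marrow as lineage-negative and Sca1-positive, with high c-Kit and no CD34 or Flt3 at the surface, and 6K cells went into each library. The 2 WT libraries came from wild type mice, and the 3 dKO libraries from mice carrying Vav-cre, a Cre transgene driven by the Vav promoter in blood cells, with floxed copies of both Lrp5 and Lrp6 (Lrp5 fl/fl, Lrp6 fl/fl). Lrp5 and Lrp6 are co-receptors for Wnt ligands. The labels name Cre in the dKO group alone, so an effect of the transgene and loss of the genes cannot be told apart. Whether the libraries stem from different mice is not stated, and p-values therefore measure only the spread between these samples, which may be technical.

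Library totals lay between 16028512 and 28027458 gene counts, with 12894 to 16098 genes detected, and dKO replicate 2 was lowest in both. Counts of the targeted genes were not lower in the libraries labelled dKO: WT held 660 and 232 for Lrp6 and 7 and 32 for Lrp5, and dKO held 790, 260 and 767 for Lrp6 and 37, 2 and 71 for Lrp5. No value per exon was used here, deletion of the floxed sequence was not tested, and every direction below rests on the labels. All 12 stem cell markers examined had counts in every library, among them Kit at 347 to 842 CPM (counts scaled to a common library size), Hlf at 86.2 to 196 CPM and Procr at 32.6 to 76.9 CPM. The CD34 transcript was also present, at 761 to 1212 CPM, as was Flt3 at 116 to 360 CPM, although the sort excluded both proteins at the surface.

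Replication licensing prepares each origin of DNA replication to fire once per cell cycle. In G1 the origin recognition complex, Cdc6 and Cdt1 load rings of Mcm2 to Mcm7 onto DNA, and in S phase these rings join Cdc45 and the GINS complex to become the active helicase, with Mcm10 needed for their start. Geminin binds Cdt1 in S and G2 and so blocks a second loading. Most of these genes are transcribed at the G1 to S transition under E2F factors, and quiescent cells, to which most adult blood stem cells belong, are known to lose licensing factors.

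The promoters are shown first because most of the 10 genes are known as E2F targets. A link between the promoter words and the values in the libraries was not tested. RefSeq (GRCm38.p6) promoters, 250 bases before to 50 after the start, were matched by symbol for 8 of the 10 genes. The table had no entry for Mcm4 and Gmnn. These coordinates belong to that build and were not used with the deposited counts, whose build is mm9 per the submitters' processing notes. The E2F word was searched on both strands as TTTCCCGC, TTTCGCGC, TTTGCCGC or TTTGGCGC. It was found in 6 of the 8 genes, namely Mcm3, Mcm5, Mcm6, Mcm7, Cdc6 and Cdt1, and in 2.26% of all 32851 promoters of the table (3.92% of the 11749 promoters whose gene was tested here). Capitals mark the E2F word in the 4 helicase promoters that hold it more than once, and the Mcm2 promoter, which lacks it, is shown for comparison. The regions are Mcm3 (chr1:20820263-20820562, minus strand), Mcm5 (chr8:75109259-75109558, plus strand), Mcm6 (chr1:128359656-128359955, minus strand), the one of 2 Mcm7 promoters that holds the word (chr5:138171834-138172133, minus strand) and Mcm2 (chr6:88898731-88899030, minus strand).
Mcm3: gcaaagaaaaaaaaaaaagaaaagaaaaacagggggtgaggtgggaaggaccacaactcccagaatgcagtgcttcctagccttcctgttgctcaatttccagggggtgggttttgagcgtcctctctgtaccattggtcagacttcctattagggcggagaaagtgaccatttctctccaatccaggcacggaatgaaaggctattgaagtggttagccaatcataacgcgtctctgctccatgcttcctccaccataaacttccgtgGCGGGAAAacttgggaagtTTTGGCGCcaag
Mcm5: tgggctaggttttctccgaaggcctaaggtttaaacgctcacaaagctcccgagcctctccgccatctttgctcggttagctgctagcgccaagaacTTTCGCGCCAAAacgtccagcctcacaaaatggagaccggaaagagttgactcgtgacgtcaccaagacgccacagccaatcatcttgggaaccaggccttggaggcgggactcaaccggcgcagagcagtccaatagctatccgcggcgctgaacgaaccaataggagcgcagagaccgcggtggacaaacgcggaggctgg
Mcm6: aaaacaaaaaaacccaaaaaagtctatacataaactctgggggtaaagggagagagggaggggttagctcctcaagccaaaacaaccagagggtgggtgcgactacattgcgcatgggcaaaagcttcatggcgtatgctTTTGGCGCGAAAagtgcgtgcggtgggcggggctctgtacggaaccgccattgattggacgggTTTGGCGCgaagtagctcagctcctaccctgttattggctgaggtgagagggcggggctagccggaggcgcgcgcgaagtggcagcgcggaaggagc
Mcm7: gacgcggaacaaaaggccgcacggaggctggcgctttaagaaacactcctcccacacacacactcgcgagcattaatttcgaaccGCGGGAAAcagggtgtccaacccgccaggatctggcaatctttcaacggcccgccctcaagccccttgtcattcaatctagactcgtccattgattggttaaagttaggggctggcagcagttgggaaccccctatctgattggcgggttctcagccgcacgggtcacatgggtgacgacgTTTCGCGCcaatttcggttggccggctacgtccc
Mcm2: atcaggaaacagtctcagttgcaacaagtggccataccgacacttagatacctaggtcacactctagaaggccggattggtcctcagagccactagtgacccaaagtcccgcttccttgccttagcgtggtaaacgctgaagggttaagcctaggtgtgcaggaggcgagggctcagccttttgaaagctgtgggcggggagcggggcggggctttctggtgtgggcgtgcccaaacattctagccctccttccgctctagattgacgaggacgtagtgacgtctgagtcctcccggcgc

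In Mcm5 and Mcm6 the words of both strands overlapped in 1 stretch of 12 bases, which began at position -153 from the start in Mcm5 and at -110 in Mcm6. Mcm6 held another word at -47. In Mcm3 both words lay after the start, at positions 20 and 39, and in Mcm7 they lay at -165 and 17. Cdc6 had 1 word at -138 and Cdt1 had 1 at 33. The CCAAT word, searched on both strands, was present in 6 of the 8 genes (Mcm2, Mcm3, Mcm5, Mcm6, Mcm7 and Mcm10) against 37.4% of all promoters. The CHR word (TTTGAA or TTCGAA) was present in 2 of the 8 (Mcm2 and Mcm7), against 19.2% of all promoters. The GC box (GGGCGG) was present in 6, against 35.7% of all promoters and 60.6% of those whose gene was tested here. A match in these windows is a description of the letters and does not show a bound site.

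All 10 genes had a lower value in the libraries labelled dKO than in WT, and no gene passed the adjusted threshold. The values ranged from 43.8% of the WT level for Gmnn to 68.2% for Mcm3. The median log2 fold change was -0.73, against 0.04 for all 13696 tested genes, of which 47.8% had a negative value. With Benjamini-Hochberg adjustment the quasi-likelihood test of edgeR called 0 of the 10 genes, against 0.0% of all genes as lower and 0.0% as higher, with adjusted p between 0.430 and 0.599 for the 10. At an unadjusted p under 0.05 the same test held 8 of the 10 as lower and 0 as higher, against 5.19% and 4.94% of all genes. This count changed with the processing, as given in the last section. DESeq2 called 3 of them lower (Mcm2, Mcm4 and Gmnn) and 0 higher, against 0.664% and 1.12% of all genes, and limma-voom 0 of 10, against 0.0%. In 9 of the 10 genes every library labelled dKO lay below both WT libraries in CPM, against 15.6% of all genes. These are bulk samples, in which fewer cells in cycle and less RNA per cell cannot be told apart.

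**Figure D1:**
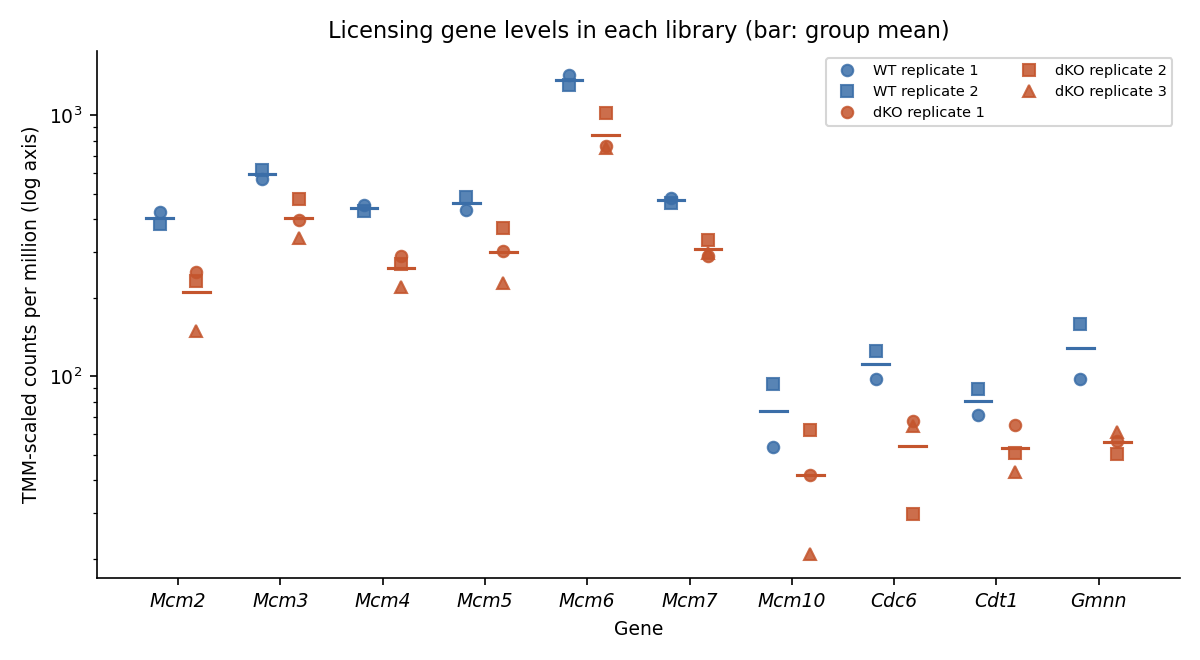
Level of each of the 10 genes in each library, in TMM-scaled CPM on a log axis, with WT in blue, dKO in orange and a bar at each group mean. The orange points lie below both blue points for every gene except Mcm10, where dKO replicate 2 (62.4 CPM) lies above WT replicate 1 (53.8 CPM).

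Among the helicase subunits Mcm2, whose N-terminal tail also binds histones, had the lowest value relative to WT. It measured 425 and 383 CPM in WT and 251, 232 and 150 CPM in dKO replicates 1, 2 and 3. The groups did not overlap, and dKO replicate 3 was the lowest. The log2 fold change was -0.94 (95% interval -1.51 to -0.37, adjusted p = 0.430 by edgeR), or 1.92-fold lower. Mcm4, one of the subunits phosphorylated by the kinase Cdc7 when origins fire, measured 453 and 431 CPM in WT and 288, 269 and 220 CPM in dKO. Its 3 dKO values lay close together and well under WT, and the log2 fold change was -0.77 (95% interval -1.20 to -0.34, edgeR adjusted p = 0.430).

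Mcm6, which with Mcm4 and Mcm7 forms the subcomplex that shows helicase activity on its own, was the most abundant member at 1430 and 1305 CPM in WT. It measured 763, 1022 and 746 CPM in dKO, so dKO replicate 2 stood nearer to WT than the other dKO libraries. The log2 fold change was -0.70 (95% interval -1.16 to -0.23, adjusted p = 0.434 by edgeR). Mcm7 measured 482 and 463 CPM in WT and 289, 332 and 298 CPM in dKO. It had the tightest groups of the 6 subunits relative to its level, and a log2 fold change of -0.62 (95% interval -1.01 to -0.23).

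Mcm3 and Mcm5 bind each other in the ring, where Mcm5 forms the gate with Mcm2, and together with Mcm7 they had the values nearest to WT among the subunits. Mcm3 measured 572 and 618 CPM in WT and 398, 480 and 340 CPM in dKO, and its fold change on the log2 scale was -0.55 (95% interval -1.01 to -0.09). Mcm5 measured 433 and 487 CPM in WT and 302, 370 and 227 CPM in dKO, and its fold change on the log2 scale was -0.62 (95% interval -1.15 to -0.08). In both genes the order of the dKO libraries was the same, with replicate 2 highest and replicate 3 lowest. For all 6 subunits together the median log2 fold change was -0.66, and each interval left out 0 before adjustment.

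Between the WT libraries the 4 genes outside the ring varied more, relative to their level, than the ring genes. Gmnn, the inhibitor of Cdt1, measured 97.8 and 158 CPM in WT and 56.5, 50.3 and 61.4 CPM in dKO. Its WT libraries stood far apart while its dKO libraries agreed closely. Its log2 fold change, -1.19 (95% interval -1.83 to -0.56, edgeR adjusted p = 0.430), was the lowest of the 10, and it was -0.81 without WT replicate 2. Cdc6, the ATPase that brings Cdt1 and the ring to the origin, measured 97.9 and 125 CPM in WT and 67.6, 29.8 and 64.5 CPM in dKO. The value in dKO replicate 2 was less than that of the other dKO libraries by a wide margin. The log2 fold change was -1.04 (95% interval -1.90 to -0.18), and -0.75 without that library.

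Cdt1, the loading factor that geminin holds back, measured 71.3 and 89.8 CPM in WT and 64.9, 51.0 and 43.2 CPM in dKO. The groups were separated only by the gap between WT replicate 1 and dKO replicate 1. Its log2 fold change was -0.60 with a 95% interval of -1.26 to 0.05 that includes 0 (adjusted p = 0.526 by edgeR). Mcm10 measured 53.8 and 93.5 CPM in WT and 41.9, 62.4 and 20.9 CPM in dKO. This was the 1 gene of the 10 whose groups overlapped in CPM, and its log2 fold change of -0.82 had the widest interval (-1.91 to 0.27). It came to -0.37 on leaving out WT replicate 2 and to -1.22 on leaving out dKO replicate 2.

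**Figure D2:**
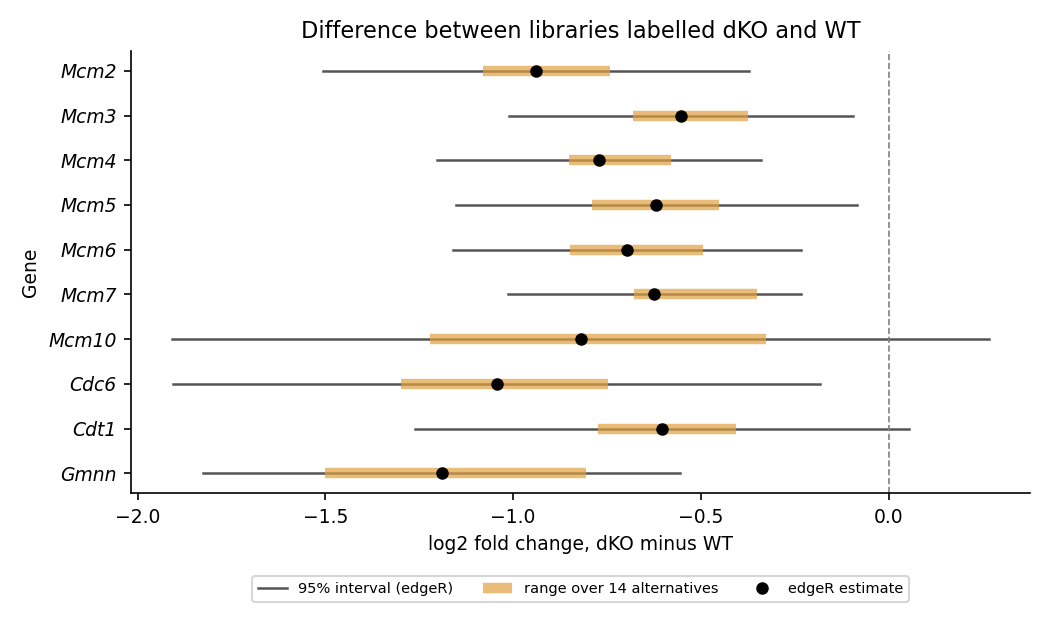
log2 fold change (dKO minus WT) of each gene by edgeR, with its 95% interval as a thin line and the range over 14 other analyses as a thick band. The bands all lie below 0, and the intervals of Mcm10 and Cdt1 cross it.

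Levels of different genes were compared in TPM, the authors' transcript level scaled for length. Mcm6 was the highest of the 10 genes in all 5 libraries, with a mean of 590 TPM, and Mcm3 the second, with 279 TPM. Mcm5 (219 TPM) and Mcm7 (212 TPM) changed places between libraries, and Mcm4 (160 TPM), Mcm2 (148 TPM) and Gmnn (144 TPM) lay within the spread between libraries of each other. Cdt1 (50.6 TPM) was the eighth in each library, and Mcm10 (28.3 TPM) and Cdc6 (27.1 TPM) shared the last ranks. Messages for loading factors were thus several times scarcer than those for the ring.

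The 6 subunits enter the ring in equal numbers, and their transcripts did not. Mcm6 was 2.06 to 2.38 times the next subunit in WT and 1.86 to 2.18 times in dKO, and it made up 33.6% to 38.9% of the summed Mcm2 to Mcm7 level over the 5 libraries. That sum was 2097 and 1777 TPM in WT and 1410, 1663 and 1089 TPM in dKO, so it was 0.109% to 0.210% of all transcripts. The share of Mcm6 in the sum was 36.7 ± 1.21% in WT (SD, n = 2) and 36.8 ± 2.79% in dKO (SD, n = 3). The share of Mcm2 was 9.999 ± 0.609% in WT and 8.33 ± 1.60% in dKO, with dKO replicate 3 lowest at 6.99% and dKO replicate 1, at 10.1%, between the WT libraries. Mcm3 held 16.6 ± 1.14% in WT and 18.1 ± 0.234% in dKO. The groups overlapped in the shares of Mcm2, Mcm4, Mcm5 and Mcm6. They did not overlap in those of Mcm3 and Mcm7, which were higher in dKO. Mcm7 held 12.6 ± 0.421% of the sum in WT and 13.9 ± 1.38% in dKO. Its groups were separated only narrowly, by 12.86% in WT replicate 1 and 12.99% in dKO replicate 1, and dKO replicate 3 was highest at 15.53%. A background for separated shares was not computed, and a difference in shares was not tested. In CPM every dKO library lay above both WT libraries in 13.7% of all tested genes and below both in 15.6%.

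**Figure D3:**
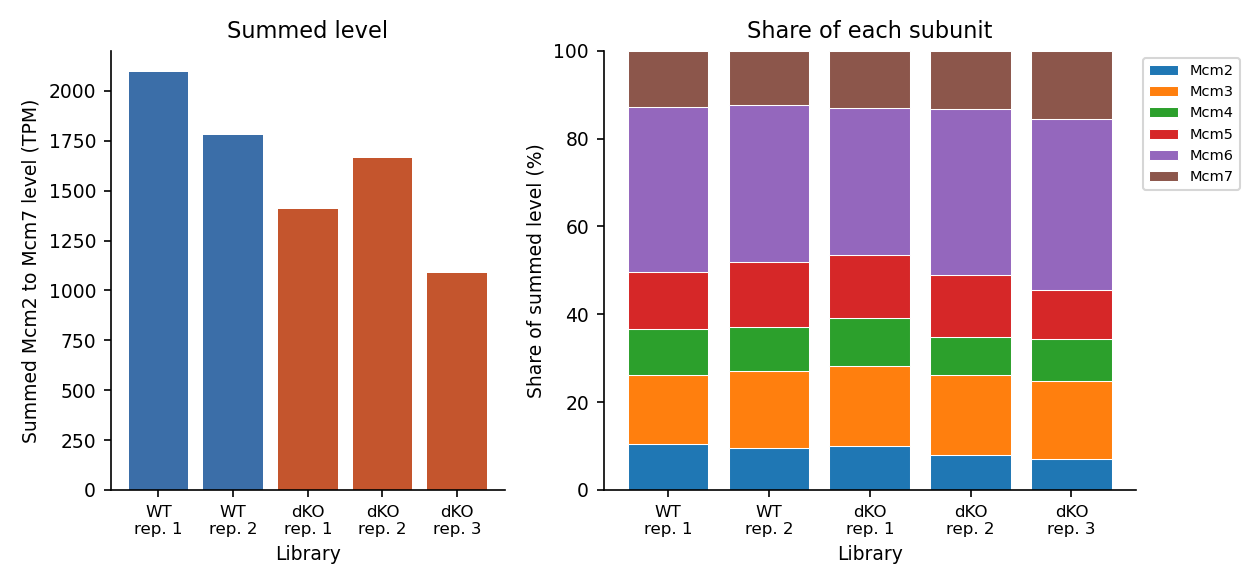
Left, summed level of Mcm2 to Mcm7 in each library in TPM, WT in blue and dKO in orange. Right, percent of that sum held by each subunit, where Mcm6 takes 33.6% to 38.9% in every library.

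Fewer of the genes were separated between the groups in TPM. Every dKO library lay below both WT libraries in 7 of the 10 genes, against 8.81% of all tested genes. The overlaps were in Mcm7, where dKO replicate 2 had 221 TPM and WT replicate 2 had 218 TPM, in Cdt1, where dKO replicate 1 had 57.0 TPM and WT replicate 1 had 56.4 TPM, and in Mcm10. For Cdc6 and Mcm10 the counts and TPM did not keep 1 ratio between libraries. Relative to the helicase subunits, the counts behind 1 TPM of Cdc6 varied 1.49-fold and those of Mcm10 1.37-fold, against 1.02-fold for Mcm2, Mcm4 and Cdt1. The other genes lay between 1.03-fold (Mcm3) and 1.17-fold (Mcm5), with Gmnn at 1.15-fold and Mcm7 at 1.09-fold. By this ratio the values of Cdc6 and Mcm10 depended most on the unit.

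Ratios between genes of 1 library do not depend on how libraries are scaled, and 2 of them were tested. The TPM of Gmnn divided by that of Cdt1 was 3.10 and 3.94 in WT and 1.84, 1.96 and 3.23 in dKO. The third dKO library lay within the WT range. The difference on the log2 scale, with a pseudocount of 0.1 TPM, was -0.62 (exact permutation test over samples, two-sided, p = 0.4, adjusted p = 0.8 over the 2 ratios, where the smallest p this design allows is 0.2). Mcm10 divided by the geometric mean of Mcm2 to Mcm7 was 0.0795 and 0.138 in WT and 0.119, 0.182 and 0.0778 in dKO, and these ranges overlapped. That difference was 0.18 (exact permutation test, two-sided, p = 1, adjusted p = 1), and it was -0.18 in CPM, -0.22 without WT replicate 1 and -0.12 without dKO replicate 2.

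The other licensing and firing genes were taken from set lists. Of the 6 origin recognition subunits 5 had lower values, the median fold change on the log2 scale was -0.53, and 1 was lower at an unadjusted p under 0.05. Over all tested genes 47.8% had a negative value and 5.19% were lower at that p, and the counts of each list below are to be read against these shares. Orc4 measured 97.5 and 108 CPM in WT and 73.1, 67.0 and 61.8 CPM in dKO. Orc1, the subunit that varies with the cell cycle, measured 18.2 and 20.0 CPM in WT and 16.6, 3.50 and 5.71 CPM in dKO, so dKO replicate 1 stood close to WT.

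Among 16 genes of helicase activation, which turn the loaded ring into a moving fork, 15 had a lower value and the median was -0.73, the same as for the 10 licensing genes. Of these, 5 were lower at an unadjusted p under 0.05 by edgeR, against 5.19% of all tested genes, of which 47.8% had a negative value. Cdc45, which joins the ring in S phase, measured 80.2 and 82.7 CPM in WT and 37.0, 14.6 and 29.3 CPM in dKO (log2 fold change -1.59). The GINS subunit Gins2 measured 75.9 and 80.0 CPM in WT and 36.6, 33.7 and 40.8 CPM in dKO, but in TPM its groups overlapped (50.1 and 37.4 in WT and 44.2, 50.2 and 33.2 in dKO). Tipin (-1.07), of the fork protection complex, and Mtbp (-1.45), which acts in origin firing, likewise had every dKO library below WT. In CPM this held for 9 of the 16 genes, against 15.6% of all tested genes. None of these passed the adjusted threshold, and their adjusted p by edgeR was 0.430 to 0.434.

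Relatives of the members outside licensing did not share 1 direction. Mcm8, of the Mcm8 and Mcm9 complex that acts in recombination, had a log2 fold change of -1.20, and Mcm9 had 0.92. Mcm9 measured 12.2 and 10.3 CPM in WT and 15.2, 12.4 and 36.4 CPM in dKO, where the third library alone was far above the others. Mcmbp, which binds Mcm subunits, had -0.02 (95% interval -0.60 to 0.56). The geminin relatives Gmnc and Mcidas, known from multiciliated cells and listed as Gm606 and Gm6320, had 0 counts in all 5 libraries, which allows up to 0.107 to 0.187 CPM per library for counting error only.

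Genes for the turnover of Cdt1 and geminin had 8 of 11 lower values with a median of -0.16, and 2 were lower and 0 higher at an unadjusted p under 0.05 (5.19% and 4.94% of all tested genes). Dtl, the adaptor that marks Cdt1 for destruction in S phase, measured 148 and 148 CPM in WT and 81.5, 83.8 and 71.3 CPM in dKO (log2 fold change -0.91, adjusted p = 0.430 by edgeR). Skp1a, a core subunit of SCF ubiquitin ligases, measured 450.4 and 467 CPM in WT and 378, 296 and 331 CPM in dKO (log2 fold change -0.45, edgeR adjusted p = 0.471). Its groups did not overlap in CPM, but in TPM they did (518 and 467 in WT and 498, 420 and 405 in dKO). Fzr1, the activator that directs the anaphase-promoting complex to geminin, measured 42.9 and 51.8 CPM in WT and 83.9, 107 and 53.2 CPM in dKO (log2 fold change 0.78, 95% interval -0.02 to 1.57). The fourth gene by p, the mitotic activator Cdc20, had -0.40 with overlapping groups, and none of the 4 passed the adjusted threshold. In CPM every dKO library lay below both WT libraries in 4 of the 11 genes and above both in 1. The shares of all tested genes were 15.6% and 13.7%.

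The E2F and Rb genes themselves were mixed, with 6 of 17 lower and a median of 0.27. The E2F partner Tfdp1 measured 260 and 308 CPM in WT and 178, 175 and 193 CPM in dKO (-0.64). The other partner Tfdp2 measured 68.2 and 80.6 CPM in WT and 113, 160 and 105 CPM in dKO (0.76). Rbl2, the pocket protein p130 known from resting cells, measured 93.1 and 53.9 CPM in WT and 128, 127 and 104 CPM in dKO (0.71), and E2f4, its usual E2F partner, had -0.73. In each of these 4 genes, taken for the smallest p of the list, the groups did not overlap in CPM. Tfdp1 and E2f4 lay below WT and Tfdp2 and Rbl2 above. Of the 17 genes 4 lay below both WT libraries in every dKO library and 3 above. The shares of all tested genes were 15.6% and 13.7%. For E2f4 the 95% interval was -1.56 to 0.09, and its groups overlapped in TPM (37.0 in WT replicate 2 and 41.2 in dKO replicate 2).

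Of the G1 and S cyclins and kinases 7 of 10 had a lower value, with a median of -0.24, among them Cdk4 (-0.67), Ccna2 (-0.82) and Ccne2 (-0.80). The 30 other S phase genes had 29 lower values, a median of -0.63 and 14 lower at an unadjusted p under 0.05, led by Pcna (-0.76), Rpa2 (-0.82), Hells (-0.80) and Nasp (-0.96). The 50 genes of G2 and mitosis had 37 lower, a median of -0.29 and 7 lower at an unadjusted p under 0.05, with Bub1 at -1.40 and Nuf2 at -1.01. The shares over all tested genes were 47.8% negative and 5.19% lower at that p. No gene of these lists passed edgeR's adjusted threshold, and a difference between the lists was not tested.

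By library, the ring genes and the mitotic genes did not follow the same order. The mean log2 CPM of Mcm2 to Mcm7 relative to each gene's own mean was 0.44 and 0.42 in WT replicates 1 and 2 and -0.24, -0.08 and -0.54 in dKO replicates 1, 2 and 3. For G2 and mitosis it was -0.10 and 0.53 in WT and -0.27, -0.03 and -0.14 in dKO. WT replicate 1 thus stood with WT replicate 2 for the ring and within the dKO range for mitosis. The other S phase genes were at 0.35 and 0.43 in WT and between -0.30 and -0.18 in dKO.

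**Figure D4:**
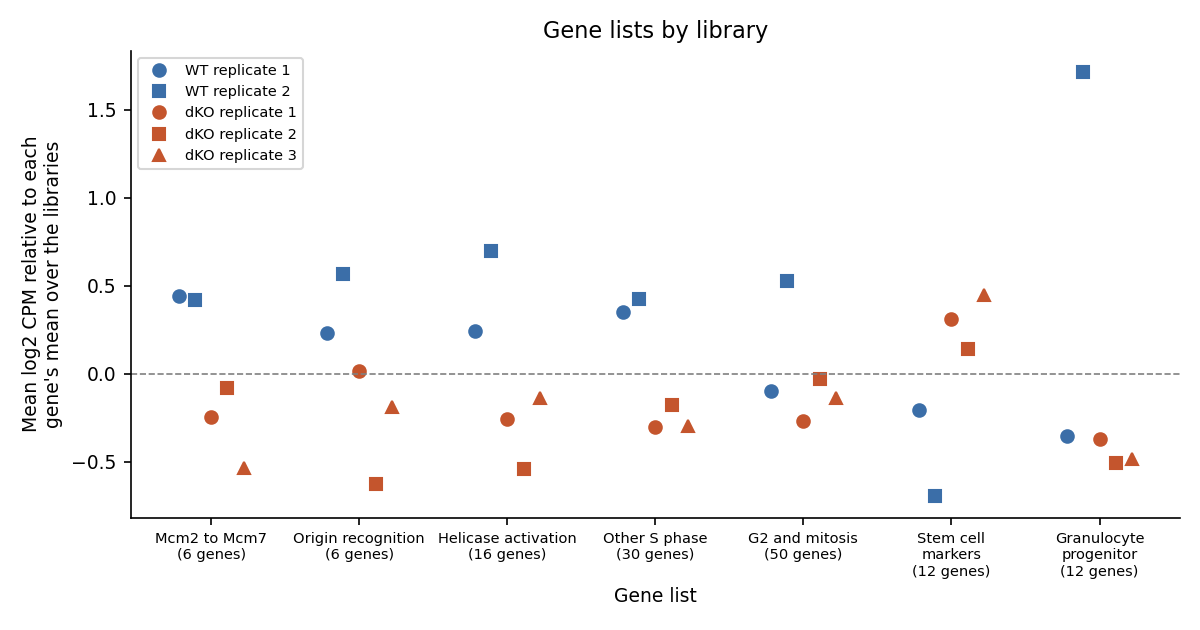
Mean log2 CPM of each gene list in each library, centred per gene on its 5-library mean, WT in blue and dKO in orange. The WT libraries sit together for Mcm2 to Mcm7 (0.44 and 0.42) and far apart for granulocyte progenitor markers (-0.35 and 1.71).

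Markers of other cells and of the stem cells themselves were examined as well, and no marker gene passed edgeR's adjusted threshold. All 12 granulocyte progenitor markers had a lower value in dKO, and their summed level was 7433 and 45239 CPM in WT and 11920 to 16946 CPM in dKO. That excess lay in WT replicate 2, with Mpo at 21486 CPM there and 3447 CPM in WT replicate 1. In WT replicate 1 the sum lay below that of every dKO library. The ring genes summed to 3795 CPM in WT replicate 1 and 3687 CPM in WT replicate 2. Without WT replicate 2 the median of the 10 genes was -0.71, and the part of the granulocyte progenitor markers in the result was not tested. Stem cell markers had 11 of 12 higher values, with sums of 1262 to 1913 CPM in WT and 2479 to 2702 CPM in dKO, and their part in the result was not tested.

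Of all tested genes 52.2% had a positive value, which is the share to set beside the counts of higher markers. Of the remaining marker lists, erythroid genes had 7 of 10 higher (sums of 1168 to 1218 CPM in WT and 1689 to 2208 CPM in dKO) and mast cell and basophil genes 7 of 8 (194 to 405 and 323 to 998 CPM). Monocyte and dendritic genes had 10 of 10 higher (365 to 371 and 549 to 1038 CPM), and megakaryocyte genes 7 of 7 tested (370 to 548 and 748 to 800 CPM). B cell genes had 7 of 8 tested higher (116 to 174 and 137 to 383 CPM), with Ms4a1 at 0 in 4 libraries and Pax5 in 3. T and NK genes had 5 of 6 tested higher, with sums of 761 to 1911 CPM in WT and 598 to 763 CPM in dKO and Cd3e at 0 in all 5 libraries. Gp6 of the megakaryocyte list was at 0 in all 5 libraries, Gzmb of the mast cell and basophil list in dKO replicate 2, and Itgax of the monocyte and dendritic list in dKO replicate 1. The part of these cells in the result was not tested.

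Leaving out any 1 library kept all 10 log2 fold changes below 0. The median of the 10 lay between -0.80 without dKO replicate 1 and -0.61 without dKO replicate 3. Mcm7 varied least, from -0.68 to -0.58, and Mcm4 from -0.85 to -0.66. The widest ranges were those of Mcm10 (-1.22 to -0.37) and Gmnn (-1.50 to -0.81). The lowest level among the libraries was that of dKO replicate 3 for 7 of the 10 genes, of dKO replicate 2 for Cdc6 and Gmnn and of dKO replicate 1 for Mcm7.

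**Figure D5:**
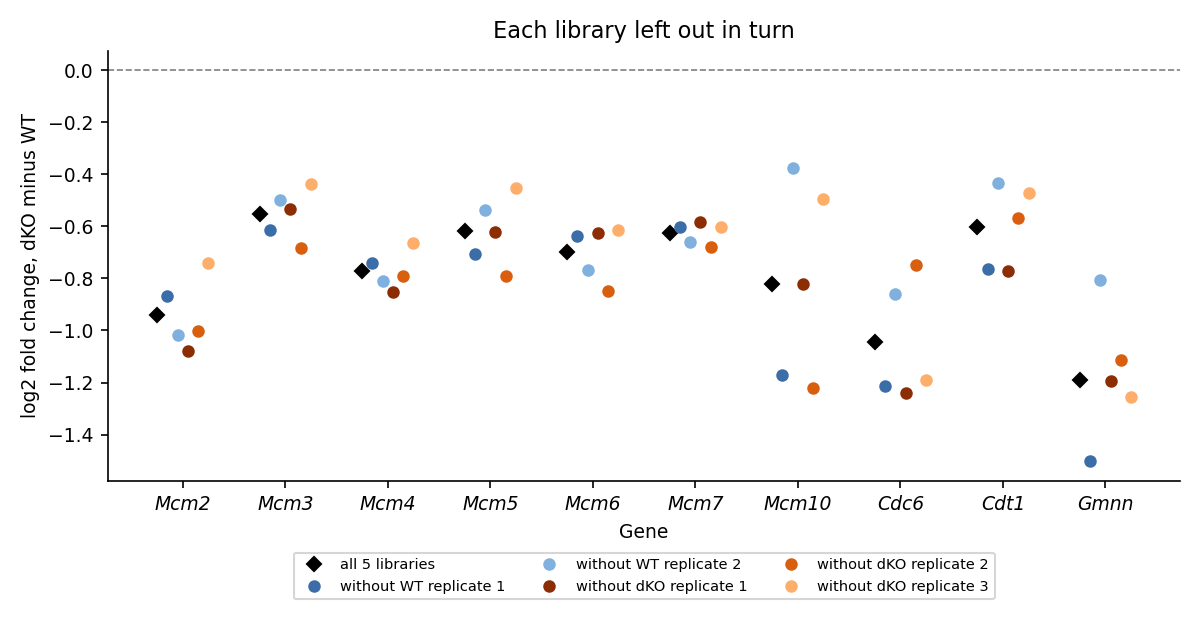
log2 fold change (dKO minus WT) of each gene with all 5 libraries (diamonds) and with each library left out in turn (circles). All points lie below 0, those of Mcm7 within -0.68 to -0.58 and those of Mcm10 spread from -1.22 to -0.37.

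Neighbouring and similar genes bear on how the counts can be read. In the GENCODE M21 annotation 2 members have a gene starting head to head within 1000 bases. Prkdc, the catalytic subunit of the DNA-dependent protein kinase, starts 466 bases from Mcm4 and measured 36.7 and 31.6 CPM in WT and 40.1, 35.0 and 19.2 CPM in dKO, with overlapping groups (log2 fold change -0.12, 95% interval -1.06 to 0.81). Ap4m1, an adaptor subunit that overlaps Mcm7 by 421 bases on the other strand, was counted 253 and 141 times in WT and 281, 0 and 110 times in dKO. The Cops6 gene overlaps the other end of Mcm7 by 64 bases. With no strand in the counting stated, reads in these overlaps cannot be assigned with certainty, but Mcm7 had 5500 to 12682 counts per library.

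Mcm7 is also the host of the microRNA genes Mir25, Mir93 and Mir106b, whose own rows held 0 counts in every library. Their TPM were not all 0, with Mir106b at 2.24 TPM in dKO replicate 1. They lie on the strand of Mcm7, so reads there cannot be assigned with certainty and 0 counts do not show absence. The annotated gene Gm20388 spans Cdt1 on the same strand and had 0 counts throughout, with the same limit. Processed pseudogenes in that annotation at least 90% identical over 200 bases or more exist for Cdc6 (Gm9430, 95.2%), Mcm4 (Gm9577, 91.1%), Gmnn (Gm6510, 93.5%) and Mcm7 (Gm5487, 97.7%). Gm9430 and Gm9577 had 0 counts in all 5 libraries, and Gm6510 and Gm5487 were not matched to an entry of the files. The counts of these 4 members are uncertain to the extent that reads could be shared.

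The genes whose profile was most like that of the ring were found by the root mean square difference of their centred log2 CPM from the mean of Mcm2 to Mcm7 over the 5 libraries. The median difference over all tested genes was 0.67. Outside the members the closest was Wdr34, a dynein intermediate chain, at 0.040, with 43.7 and 44.2 CPM in WT and 29.5, 31.5 and 23.3 CPM in dKO. Fam111a, a protease that acts at replication forks, followed at 0.082, then the tubulin Tuba1b at 0.088. Tuba1b measured 1205 and 1243 CPM in WT and 797, 773 and 671 CPM in dKO. The pseudogenes Rpl19-ps11 (0.088) and Gm8759 (0.089) came next at levels of 0.852 to 4.94 CPM, where counts are few. By the same measure the ring genes, which make up that mean, lay between 0.091 (Mcm4) and 0.195 (Mcm2). Of the members outside the ring Cdt1 was close to Mcm2 at 0.203. Mcm2 ranked 222 and Cdt1 262 among the tested genes, so many genes outside the members lay nearer to that mean. Gmnn (0.39), Mcm10 (0.45) and Cdc6 (0.58) lay further off.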

How the data were processed

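For each of the 5 libraries the authors deposited raw counts per gene and, in a second file, TPM, which they scaled for library size and transcript length. Tools named in the submitters' processing notes are TopHat2 2.1.1, HTSeq, RSEM 1.2.31, DESeq2, Trimmomatic and FastQC 0.11.5, with the build mm9, and no source used here says which of them made which values. Of 33924 entries 30 name no gene and took 0.216% to 0.269% of the counts. They were left out.

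The test on counts was edgeR 4.0.16, run in R 4.3.3 (TMM scaling, filterByExpr with 13696 genes kept, robust quasi-likelihood fit, 2 WT against 3 dKO, no covariate, Benjamini-Hochberg adjusted p under 0.05). CPM are counts scaled by TMM. Each 95% interval of a log2 fold change comes from that fit. The members and lists were chosen with earlier results of these data known. Genes named are the 10 members, Lrp5 and Lrp6, up to 4 per context list with the smallest p, head-to-head neighbours and the 5 most similar profiles. Marker genes named singly, overlapping genes and pseudogenes were added to these after their values were seen. Of 244 list entries 238 matched by symbol and 6 by identifier. Pseudogenes were matched by BLAST to GENCODE M21 transcripts. Alternatives were DESeq2 1.42.0, limma-voom (limma 3.58.1), 2 other scalings, 2 other filters, limma on log2 TPM, a replicate block and each library left out. Scripts were tested on simulated counts. No library was a duplicate: within a group the chi-square of the counts over genes was at least 99.6 times its degrees of freedom. At these depths 0 counts allow up to 0.107 to 0.187 CPM (3 counts per library, counting error only). The value of 1 marker gene is not reported here.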

Additional observations from a re-analysis of the deposited data

How the results depend on the processing

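All 10 members kept a negative value in all 14 alternatives, and of 140 member values 3 passed a threshold, those of Mcm2, Mcm4 and Gmnn with DESeq2. At an unadjusted p under 0.05, 8 members were lower with edgeR (711 of 13696 genes) and 8 with DESeq2 (782 genes). With limma-voom 9 were lower (924 genes) and with the replicate block 6 (618 genes). With limma on log2(TPM + 1) or log2(TPM + 0.1) only 4 were lower (372 and 355 genes). With edgeR, 7 were lower without dKO replicate 1 (603 of 13136 genes) and 9 without dKO replicate 2 (604 of 13474). Without dKO replicate 3 the count was 6 (629 of 13249). The count of all genes past the threshold was 0 with edgeR, 245 with DESeq2, 8 with no filter on low counts, 5 with limma on log2(TPM + 1), 2 on log2(TPM + 0.1) and 0 to 5 with each library left out (5 when WT replicate 1 was omitted, 1 each on omitting WT replicate 2 or dKO replicate 2). The cause was not tested. In TPM the median of the members was -0.54 with either pseudocount, and that of all genes moved from 0.04 to 0.14, so the members stood -0.68 from all genes there and -0.77 in CPM. The ratio of Mcm10 to the ring was 0.18, but -0.18 in CPM, and -0.22 to 0.58 with each library left out. The Gmnn to Cdt1 ratio of -0.62 kept its direction, at -0.88 to -0.45 with each library left out. With the replicate number as a block 1 gene passed the threshold, no member did, and the median of the members was -0.62. No WT library shares the number of dKO replicate 3, so that library added nothing to the difference estimated there. The median without dKO replicate 3 was -0.61. Deviations of same-numbered libraries from their group means correlated at 0.03 and 0.05. With 2 WT libraries the deviations of 1 mirror those of the other, so these values cannot decide whether same-numbered libraries were paired. With 2 WT libraries, both fold sizes and intervals rest on few samples, and where 1 WT library remains it is assumed to vary like the others.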
